A study of Bos grunniens and Bos taurus with 11 samples.

Results

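The lungs of yaks from 3400 m (T1) were compared with the lungs of yaks from 5000 m (T3), the lowest and the highest altitude at which yaks were sampled. The comparison rests on 6 libraries of the 11 in the series, 3 from T1 and 3 from T3, each from a different animal. Genes entered it where the deposited FPKM reached 1 in at least 2 of the 6 libraries, which left 12461 of the 17267 genes in the files, 6761 of 8451 annotated genes and 5700 of 8816 new genes. Annotated genes carry a numeric identifier, and new genes carry the prefix NewGene from the transcript assembly made in the study. All animals were indigenous adult male yaks, untreated, and T1 came from Maqu and T3 from Anduo, so altitude and place of origin cannot be told apart. The remaining libraries, 3 from yaks at 4200 m (T2) and 2 from Zaosheng cattle at 1500 m (CON), are given only for levels. FPKM is the count of fragments on a gene divided by its length and by the total of fragments counted, so it adjusts for gene length and for the depth of the library. A gene was called a DEG where limma gave an adjusted p (Benjamini-Hochberg) below 0.05 together with a 2-fold or larger change. A gene was called nominal where the p before adjustment was below 0.05 and the change was 2-fold or larger.

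In the mammalian lung, low oxygen makes small pulmonary arteries constrict, and cells stabilise hypoxia-inducible transcription factors that raise genes of glycolysis, iron handling and vessel growth. Yaks live permanently at high altitude and are known for thin-walled pulmonary arteries and a weak constrictor response. Among annotated genes, which of these moved between altitudes could not be read from the files. None of the annotated genes has a name in them, and the reference gene table of 40772 genes held 0 of their identifiers. Names were given for 390 new genes, with 204 different names, and 312 of these genes were tested. The 12 marker lists of lung, blood, muscle, fat and retina cells found 0 genes by name, so the labelled tissue was not checked against its markers. The same held for the lists of alveolar, hypoxia, haemoglobin, heat shock, antigen presentation, interferon and matrix genes.

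T1 and T3 differed in how the reads were spread over genes before any single gene was compared. The reads counted on genes were 40355948, 48068260 and 33139808 in T1 and 40005160, 28138973 and 54515645 in T3, so depth overlapped between the groups. Genes without a read numbered 1860, 2183 and 1821 in T1 against 2816, 3747 and 2226 in T3. The 10 genes with the most reads held 17.5%, 23.0% and 19.1% of the reads in T1 and 39.7%, 40.7% and 25.9% in T3. New genes held 13.5%, 13.6% and 11.7% in T1 and 17.4%, 16.4% and 22.0% in T3. In each of these measures every T3 library lay above every T1 library, with an exact two-sided permutation p of 0.1, the smallest that 3 against 3 libraries can give. The distance of T3 replicate 3 from T1 was the smallest in the first measures and the greatest in the share of new genes. Genes with an FPKM of at least 1 numbered 11581, 11267 and 12074 in T1 and 9380, 9046 and 11478 in T3. In that measure the groups overlapped through T3 replicate 3 (exact permutation p of 0.2).

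**Figure D1:**
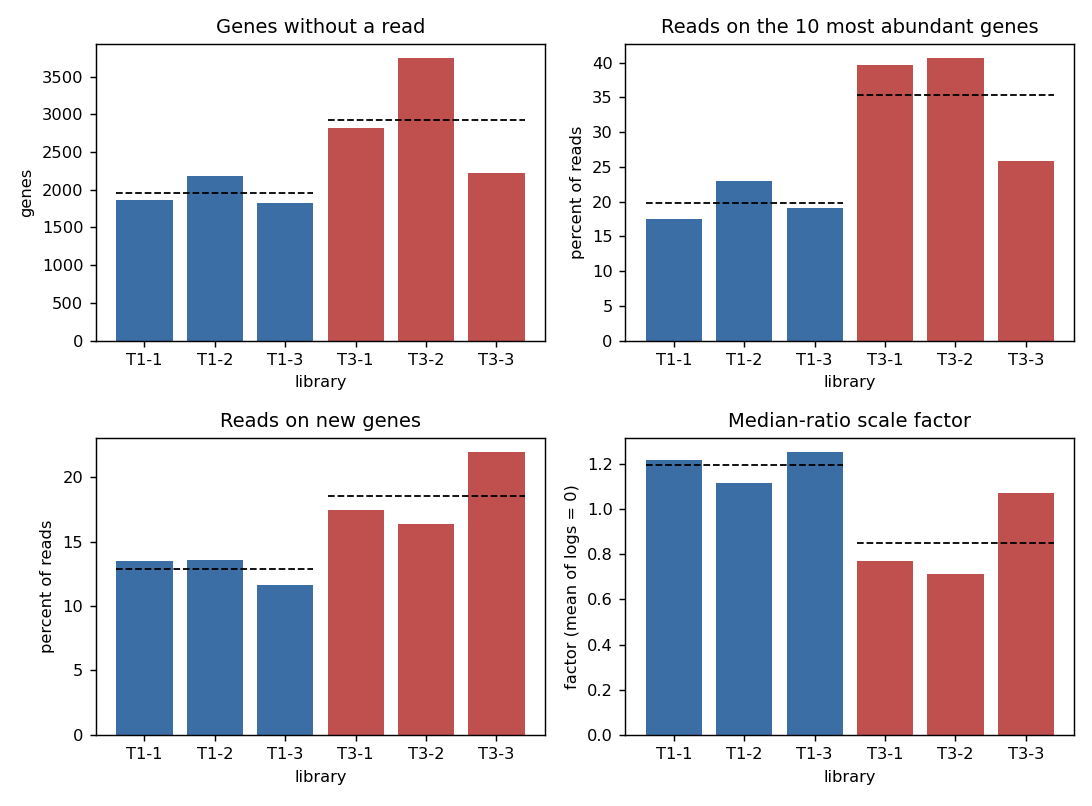
Measures of the 6 libraries, 3 from T1 (blue) and 3 from T3 (red), on linear axes that start at 0, with the dashed line at the group mean. T3 replicates 1 and 2 have 39.7% and 40.7% of their reads on 10 genes, and T3 replicate 3, with 25.9%, lies nearer to the T1 libraries, which reach 23.0%.

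A few very abundant genes held these reads, and their identifiers carry no name. NewGene.4333, 476 bases long, held 3.35%, 4.26% and 3.65% of the reads in T1 and 6.83%, 7.84% and 8.31% in T3. Its groups did not overlap, although T2 replicate 1 stood above all of them at 18.3%. Without this gene the share of reads on new genes was 10.1%, 9.33% and 8.0% in T1 and 10.6%, 8.53% and 13.6% in T3, and the groups overlapped (exact permutation p of 0.4). The gene with the most reads in all 3 T1 libraries, 102266368, held 5.01%, 8.11% and 6.72% there and 14.8%, 5.66% and 6.18% in T3, so it was high in T3 replicate 1 alone. In T3 replicate 2 the leading gene was 102276161 with 13.5% of the reads, against 1.52% in T3 replicate 1, 0.275% in T1 replicate 1 and at most 0.0198% in the other 3 libraries. These genes were singled out after their values were seen. Of the 20 genes that rank among the 10 most abundant in any of the 6 libraries, 2 lay higher in every T3 library than in every T1 library without scaling and 1 lay lower, beside 0.522% and 22.5% of all genes tested.

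FPKM is relative to the reads counted in a library, so the share held by a few genes enters the FPKM of the others. Over the 12461 genes the median log2 fold change between T1 and T3 was -0.39 with the FPKM as deposited. Median-ratio scaling, which divides each library by the median ratio of its genes to their mean over the libraries, used factors of 1.22, 1.12 and 1.25 in T1 and 0.770, 0.713 and 1.07 in T3 and brought that median to -0.00. Without scaling, but with the most abundant genes left out of the totals, the median was -0.14, with 84 nominal genes higher and 409 lower. That fit tested 13310 genes, so the set of genes changed along with the totals. What the remaining difference came from was not tested. Without scaling, 2802 genes (22.5%) were lower in every T3 library than in every T1 library and 65 (0.522%) were higher. After scaling, 802 genes (6.44%) were lower in every T3 library and 559 (4.49%) were higher. Differences below are given after scaling unless the sentence says otherwise.

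**Figure D2:**
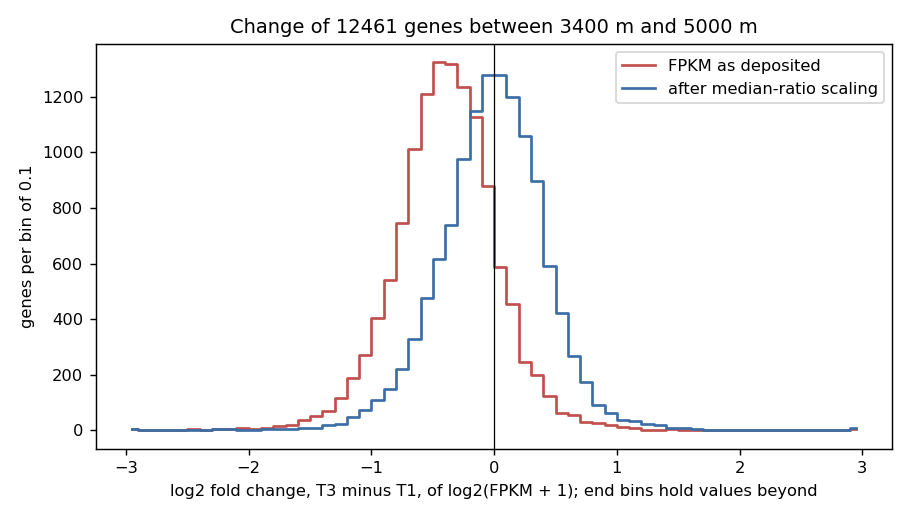
Number of genes (y axis) by log2 fold change, T3 minus T1, of log2(FPKM + 1) (x axis, in bins of 0.1) for the genes tested, with the deposited FPKM (red) and after median-ratio scaling (blue). The peak lies below 0 without scaling (median -0.39) and at 0 with it.

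Only 1 DEG was found, and it was higher in T3, which is 0.00803% of the genes tested. Without scaling 0 genes passed, while 1948 (15.6%) had an unadjusted p under 0.05. Nominal genes numbered 258 after scaling (2.07% of the genes tested), of which 100 were higher in T3 (0.803%) and 158 were lower (1.27%). Without scaling they numbered 750 (6.02%), 30 higher (0.241%) and 720 lower (5.78%). The genes in both sets numbered 188, which is 72.9% of those with scaling and 25.1% of those without, 30 higher and 158 lower. Without regard to the size of the change, 706 genes (5.67%) had an unadjusted p under 0.05 after scaling. The median 95% confidence interval of a log2 fold change, before adjustment, reached 0.76 to either side, a factor of 1.69, with 3 animals per group. It is not the limit for a DEG, because larger changes also missed the adjusted threshold. NewGene.9354, for example, differed by 3.50 with a limma adjusted p of 0.2. In whole lung, fewer cells of a type and less RNA per cell cannot be told apart.

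The DEG was 102266929, an annotated gene of 2234 bases with no name in the files. Its FPKM was 1.26, 1.74 and 2.07 in T1 (1.69 ± 0.403, SD, n = 3) and 11.9, 12 and 12.6 in T3 (12.1 ± 0.364, SD, n = 3). The values within each altitude were close together, and those of T3 were several times those of T1. On the scaled log2 scale the difference was 2.69 ± 0.27 (SE, limma adjusted p = 0.0453), with a 95% confidence interval of 2.08 to 3.30. Without scaling it was 2.30, with an adjusted p of 0.0983. With the share of mapped reads of each library in the fit beside altitude the difference was 2.53 and the adjusted p was 0.495. With any 1 of T1 replicates 1, 2 and 3 or T3 replicates 1 and 2 left out, the adjusted p of 102266929 lay above the threshold, at 0.0784 to 0.366, and without T3 replicate 3 it was 0.0203. At 4200 m the FPKM was 9.57, 1.72 and 11.6, and in cattle 13.3 and 1.26. Low values near those of T1 and high values near those of T3 thus both occurred within T2 and within the cattle, which were not tested here.

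Of the 312 named genes tested, 19 (6.09%) had an unadjusted p under 0.05, 12 higher in T3 and 7 lower, beside 5.67% of all genes tested. None was a DEG, and the named genes below are described by their values. All of them are new genes named by orthology, most are shorter than an average transcript, and reads that could come from a near-identical copy elsewhere in the genome cannot be assigned with certainty. For 14 of them, 8 higher and 6 lower in T3, the groups did not overlap after scaling, the unadjusted limma p was under 0.05 and the direction was the same without scaling. In these 14 the adjusted p was 0.339 for RPS26 and 0.852 for each of the others. Of the 8 higher ones, only RPS26 and SPCS2 kept an unadjusted p under 0.05 without scaling, and all 6 lower ones did. Other named genes are given below as members of lists.

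Of the named genes with higher values in T3, RPS26 (NewGene.10366, 239 bases), a protein of the small ribosomal subunit, had an FPKM of 0.829, 0 and 0.126 in T1 and 2.51, 3.57 and 2.76 in T3. These values came from 8, 0 and 1 reads in T1 and 24, 24 and 36 in T3, so the gene is named at a low depth. The scaled log2 difference was 1.88 ± 0.34 (SE), and the T2 animals lay between the groups at 1.31, 1.17 and 1.31. SPCS2 (NewGene.5605, 1452 bases), a subunit of the signal peptidase that cuts signal peptides from proteins entering the endoplasmic reticulum, had 11.8, 8.4 and 11.9 in T1 and 18.4, 22.2 and 13.6 in T3. Its difference was 1.17 ± 0.33 (SE) after scaling and 0.69 without. In T2 it was at 11.3, 22.6 and 11.4, at the T1 level in 2 animals and at the T3 level in 1.

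The ribosomal proteins as a list held 19 new genes, of which 14 were tested, with a median scaled log2 difference of 0.42 beside -0.00 over all genes tested. Without scaling the median of the list was -0.02, beside -0.39 over all genes. RPS6KA5, a kinase whose name shares the prefix, was kept out of it. RPS26 and RPL35 (NewGene.9430) were the 2 members at an unadjusted p under 0.05 (14.3% of the 14, beside 5.67% of all genes tested). RPS26 entered the test through its T3 values alone, with an FPKM below 1 in every T1 library. The share was therefore not read as a result about the list. RPL35, a protein of the large subunit, had 23.1, 9.08 and 0.895 in T1 and 12.6, 27.0 and 20.1 in T3, so its groups overlapped through T1 replicate 1. Its difference was 1.80 after scaling and 1.37 without, where the unadjusted p was no longer under 0.05. RPL35A (NewGene.127) was at 355, 110 and 97.2 in T1 and 386, 402 and 105 in T3, high in T1 replicate 1 and in T3 replicates 1 and 2. RPL14 (NewGene.12983), the most abundant member, was at 491, 333 and 337 in T1 and 472, 480 and 246 in T3. The lowest member was RPL31 (NewGene.12930), with a scaled difference of -0.55. Several members were thus high in T1 replicate 1, T3 replicate 1 and T3 replicate 2 together, across the 2 altitudes.

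FTL (NewGene.14673), the ferritin light chain that stores iron, had an FPKM of 1.22, 1.76 and 1.70 in T1 and 2.56, 1.63 and 4.37 in T3. Without scaling the groups overlapped through T3 replicate 2, and the difference was 0.53. After scaling it was 0.85 ± 0.30 (SE), with T2 at 1.06, 4.87 and 1.74. DOCK3 (NewGene.9205), which activates the small GTPase Rac, had 4.8, 4.16 and 3.32 in T1 and 7.50, 4.98 and 4.39 in T3. MSI (NewGene.448), an RNA-binding protein of the Musashi family, had 3.49, 2.90 and 3.75 in T1 and 2.92, 4.15 and 5.52 in T3. Their scaled differences were 0.78 ± 0.33 and 0.62 ± 0.27 (SE), against 0.36 and 0.22 without scaling. In both genes the ranges overlapped in the deposited FPKM. A KRAB zinc finger gene (NewGene.19512), of a family of repressors of transposable elements, was at 5.15, 4.29 and 3.14 in T1 and 5.53, 6.33 and 5.12 in T3, with a difference of 0.80 ± 0.31 (SE) after scaling and 0.37 without, where its groups overlapped through T1 replicate 1. An olfactory receptor (NewGene.2608, 237 bases) was at 1.67, 0.702 and 2.04 in T1 and 4.43, 1.20 and 3.56 in T3, from at most 46 reads in a library, with a difference of 0.98 ± 0.39 (SE) after scaling and 0.66 without, where its groups overlapped through T3 replicate 2.

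Of the named genes with lower values in T3, SPI1 (NewGene.10605, 204 bases), named for PU.1, the transcription factor of macrophage and B cell development, had an FPKM of 2.06, 4.18 and 3.55 in T1 and was at 0, 0.697 and 0.360 in T3. The reads were 17, 41 and 24 in T1 and 0, 4 and 4 in T3. Its difference was -1.41 ± 0.37 (SE), and in T2 it was at 0.512, 1.37 and 0.472, near the T3 values. TCF7L2 (NewGene.3661, 828 bases), a transcription factor of the Wnt pathway, had 15.4, 13.2 and 18.2 in T1 and 4.32, 3.26 and 11.3 in T3. RBBP4 (NewGene.7774, 692 bases), a histone-binding subunit of several chromatin complexes, had 22.3, 20.6 and 23.0 in T1 and 9.25, 7.29 and 16.1 in T3. In both genes T3 replicate 3 lay between the other T3 libraries and T1. The differences of TCF7L2 and RBBP4 were -0.90 ± 0.31 and -0.55 ± 0.23 (SE) after scaling and -1.34 and -1.02 without, and over the alternatives the smallest in size were -0.47 and -0.34. In T2, TCF7L2 was at 9.3, 15.3 and 12 and RBBP4 at 18.3, 23.0 and 22.8, so RBBP4 at 4200 m was at the level of 3400 m in 2 animals and near it in the other one. ELP3 (NewGene.2578, 460 bases), the catalytic subunit of the elongator complex, was at 0.970, 1.63 and 1.51 in T1 and at 0, 0 and 0.239 in T3, with 1.99, 0 and 0.784 in T2. SPI1 and ELP3 entered the test through their T1 values alone, with an FPKM below 1 in every T3 library. Their differences are therefore a description only.

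**Figure D3:**
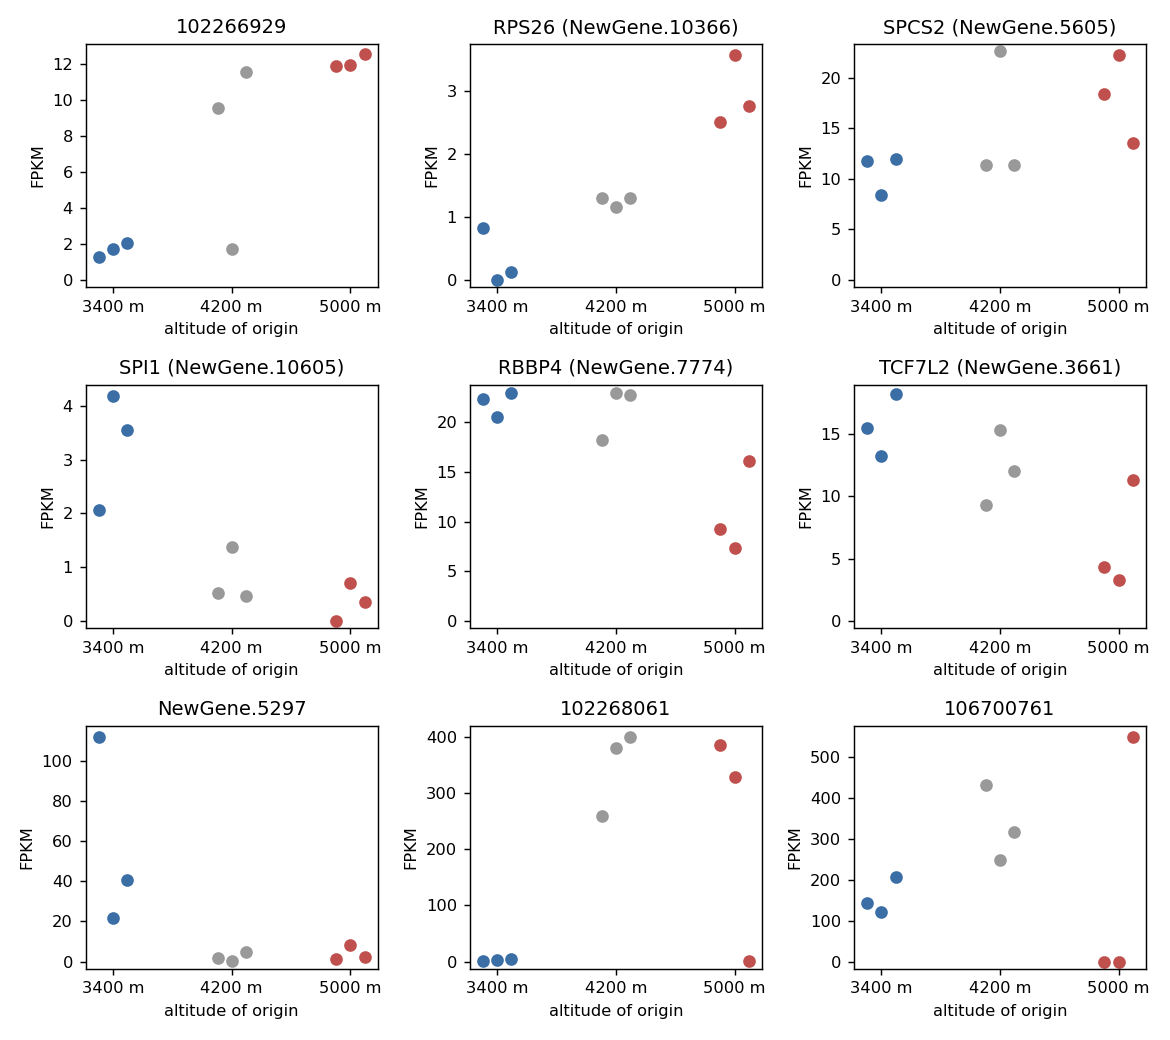
FPKM as deposited (y axis, linear, from 0) of 9 genes in the T1, T2 and T3 libraries, by altitude of origin (x axis); each point is 1 animal, with replicates 1, 2 and 3 from left to right. The DEG 102266929 is between 11.9 and 12.6 in T3 and at most 2.07 in T1, and 102268061 and 106700761 place T3 replicate 3 apart from the other T3 animals.

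The name taste receptor type 2 (TAS2R) was given to 130 new genes, of which 92 were tested. TAS2R proteins are bitter taste receptors, coupled to G proteins and found in airway epithelium. Of the 130 genes, 15 had a GO term, 9 of them RNA-directed DNA polymerase activity, the enzyme of retrotransposons, and 0 had a term for taste or for a G protein-coupled receptor. Their median scaled difference was -0.11, beside -0.00 over all genes tested, with 3 whose groups did not overlap higher in T3 and 10 lower, where 4.49% and 6.44% of all genes did so. At an unadjusted p under 0.05, 3 were higher and 2 lower, which is 5.43% of the 92 and near the 5.67% of all genes tested. NewGene.812 (8389 bases) was at 3.95, 3.74 and 4.56 in T1 and 0.915, 1.19 and 1.96 in T3, with a difference of -0.79 ± 0.27 (SE) and T2 values of 2.12, 1.20 and 1.83, near those of T3. NewGene.14822 (1001 bases) was at 1.11, 2.14 and 1.57 in T1 and 0.375, 0 and 0.330 in T3, so it entered the test through its T1 values alone. NewGene.14039 (3707 bases) went the other way, at 2.90, 2.52 and 3.23 in T1 and 4.87, 2.48 and 4.39 in T3, with a difference of 0.69 ± 0.29 (SE) after scaling. Without scaling it was 0.31, and T3 replicate 2 lay below every T1 library. NewGene.11245 (2554 bases) was at 2.21, 2.07 and 5.34 in T1 and 5.46, 5.84 and 4.12 in T3, where T1 replicate 3 overlapped T3, with a difference of 1.03 after scaling and 0.62 without.

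Genes with a GO term for RNA-directed DNA polymerase activity formed the largest of the 47 lists looked up by GO term, with 571 tested of 723. After scaling 3 were nominal and higher and 5 nominal and lower, and 6 and 22 had groups that did not overlap. At an unadjusted p under 0.05 there were 13 (2.28%), below the 5.67% of all genes tested, and of all genes 2.07% were nominal and 10.9% had groups that did not overlap. The median difference was -0.03 after scaling and -0.33 without, close to the -0.00 and -0.39 over all genes tested. The terms DNA recombination (493 tested) and RNA-mediated transposition (323 tested) had medians of -0.03 each. Of 8 tested KRAB genes 1 passed an unadjusted p under 0.05, NewGene.19512 above. Of 7 tested genes named SETMAR, defined there as a histone-lysine N-methyltransferase, 0 passed it, and their median was -0.21. Genes for RNA binding (57 tested) and for DNA binding (55 tested) had medians of 0.16 and 0.14, with 1 gene in each direction at an unadjusted p under 0.05 in either list.

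Energy metabolism was covered by few genes. The respiratory chain list held 5 new genes, with 4 tested and 0 at an unadjusted p under 0.05, beside 5.67% of all genes tested. COX16 (NewGene.129), an assembly factor of cytochrome c oxidase, was at 14.6, 8.39 and 7.95 in T1 and 14.6, 13.5 and 3.70 in T3. ATP5A1 (NewGene.1907), a subunit of ATP synthase, was at 3.73, 2.62 and 7.11 in T1 and 6.10, 3.90 and 0.895 in T3. NDUFV2 (NewGene.9472), a subunit of complex I, was at 1.73, 2.35 and 1.97 in T1 and 1.99, 1.53 and 0.408 in T3. COX6C (NewGene.10045), a subunit of cytochrome c oxidase, was at 2.53, 2.12 and 1.13 in T1 and 2.47, 1.93 and 0.25 in T3. All 4 had their lowest value of the 6 libraries in T3 replicate 3, while T3 replicates 1 and 2 overlapped T1. The median difference of the list was 0.07 with scaling and -0.33 without, beside -0.00 and -0.39 over all genes tested. Without scaling COX16, ATP5A1 and COX6C turned from 0.37, 0.07 and 0.06 to -0.10, -0.36 and -0.29. Scaling moves all genes of a library alike, so these turns were not read as a result about these genes. Of the 23 genes tested with the GO term mitochondrion, 0 reached an unadjusted p under 0.05, beside the same 5.67% of all genes. In lists of this size a count of 0 lies near that share. The median difference of the mitochondrion genes was 0.23 with scaling and -0.16 without.

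Among the new genes 5 were named ND2 or ND5, subunits of complex I that the mitochondrial genome encodes, and the longest of them were an ND2 model (NewGene.1, 10451 bases) and an ND5 model (NewGene.2, 16323 bases). The ND2 model had 431916, 98834 and 10515 reads in T1 and 288170, 197181 and 0 in T3. The ND5 model had 0, 254126 and 49124 reads in T1 and 288170, 0 and 686494 in T3. In T3 replicate 1 both models carried the same number of reads, and in 3 libraries 1 of them was listed at 0 while the other had at least 197181. The shorter ND5 models, NewGene.12170 and NewGene.12171, both of 1907 bases, carried the same number of reads in 5 of the 6 libraries, and in T1 replicate 3 the first was listed at 0 and the second had 16947. The values of either model alone were therefore not read as a level, and a value listed at 0 elsewhere in these files was not read as absence. The reads of the ND2 and ND5 long models together were 1.07%, 0.734% and 0.180% of the library in T1 and 1.44%, 0.701% and 1.26% in T3, where the groups overlapped. Counted once, the equal reads of T3 replicate 1 were 0.72% of its library.

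Genes with an identifier only are given for the largest changes among those whose FPKM averaged 5 or more and whose groups did not overlap. NewGene.9354 (2121 bases) had 0, 0 and 1 read in T1 and 1798, 276 and 727 in T3, an FPKM of 21.2, 4.62 and 6.29. In T2 it was listed at 0, 9.34 and 0 and in cattle at 0 in both, so it was high in 1 T2 animal and in every T3 animal. Its scaled difference was 3.50 ± 0.51 (SE), with a limma adjusted p of 0.2. 102266548 (3033 bases) was at 0, 0.0274 and 0 in T1 and 0.0659, 38.0 and 19.8 in T3, so it was high in 2 of the 3 T3 animals, and at most 0.507 in T2. Its difference was 3.38 ± 1.16 (SE, limma adjusted p = 0.852), and T3 replicate 1 lay only just above T1. NewGene.5297 (266 bases) was at 112, 21.5 and 40.7 in T1 and 1.22, 8.55 and 2.48 in T3, with a difference of -3.05 ± 0.68 (SE, limma adjusted p = 0.708). In T2 it was at 1.96, 0.419 and 4.70 and in cattle at 1.35 and 3.58, so T1 was the group that stood apart. NewGene.19604 (248 bases) was at 22.6, 5.03 and 4.38 in T1 and listed at 0 in all 3 T3 libraries, with at most 1.16 in T2. Its difference was -2.97 ± 0.52 (SE, limma adjusted p = 0.339). NewGene.9354 and 102266548 entered the test through their T3 values alone, and NewGene.19604 through its T1 values alone. The differences and adjusted p-values of these genes are therefore a description only.

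Across all 17267 genes in the files, 113 had a read in every T1 library and were listed at 0 in every T3 library, and 8 showed the reverse. Every T3 library had more genes without a read (2816, 3747 and 2226) than any T1 library (1860, 2183 and 1821), which alone favours the first count. The difference between these counts was therefore not read as a result about the genes. Of the 113, 88 were new genes, their median length was 347 bases, and the median gene had 12 reads in its highest library. At that depth an absence from T3 was not detectable for most of them, and 102 had a read in at least 1 T2 library. With an FPKM of at least 1 in every library of a group and at most 3 reads in each library of the other, the counts were 8 and 1. This rule allows a few reads in the other group, and 4 of the 8 had reads in T3 (NewGene.7479, NewGene.13190, NewGene.13673 and NewGene.17875). The 8 were NewGene.12556, NewGene.7479, NewGene.13190, NewGene.19604, NewGene.15687, NewGene.18163, NewGene.13673 and NewGene.17875, all new genes of 219 to 381 bases, and each had a read in T2. NewGene.15687 was the longest of them, at 9.04, 2.35 and 4.20 in T1 and 0 in T3. The single gene in the other direction was NewGene.9354, with 1 read in T1.

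New genes made up 62.0% of the 258 nominal genes (160 genes, exact binomial 95% confidence interval 55.8% to 68.0%, for counting error only) and 45.7% of the genes tested. That interval treats genes as independent, which genes measured in the same libraries are not. Without scaling their share was 47.7% of 750. Among annotated genes, 49 were higher and 49 lower at these thresholds, while among new genes 51 were higher and 109 lower. The new genes were shorter, with a median of 476.5 bases against 2220 in the annotated genes tested, and less abundant, with a median FPKM of 1.86 against 15.5. T3 replicates did not share a direction by class. The median scaled difference of new genes from the T1 mean was -0.21 in T3 replicate 1, -0.25 in T3 replicate 2 and 0.20 in T3 replicate 3, and that of annotated genes was 0.13, 0.12 and -0.12. In the shortest genes, those of 153 to 497 bases, these medians were -0.21, -0.28 and 0.21. In the equally large set with the highest mean FPKM they were 0.21, 0.29 and -0.15. Short genes were thus low in T3 replicates 1 and 2 and high in T3 replicate 3, abundant genes were the reverse, and their part in the counts above was not tested.

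Within T3, replicate 3 stood apart from the other animals. The median absolute difference of scaled log2 values over the genes tested was 0.27 to 0.38 between T1 animals and 0.36 between T3 replicates 1 and 2. T3 replicate 3 differed from T3 replicates 1 and 2 by 0.59 each, more than any T1 library differed from any T3 library (0.32 to 0.55). The library nearest to T3 replicate 3 was T1 replicate 3 (0.32), and the libraries nearest to T3 replicate 1 were T1 replicate 1 (0.34) and T3 replicate 2 (0.36). The median SD of a gene was 0.28 in T1 and 0.45 in T3. The range within the group reached a log2 of 2 in 195 genes (1.56%) in T1 and 618 genes (4.96%) in T3. Pearson correlations of the scaled log2 values across genes, which are not independent replicates, were 0.936 to 0.953 within T1, 0.938 between T3 replicates 1 and 2, and 0.890 and 0.902 between T3 replicate 3 and these.

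**Figure D4:**
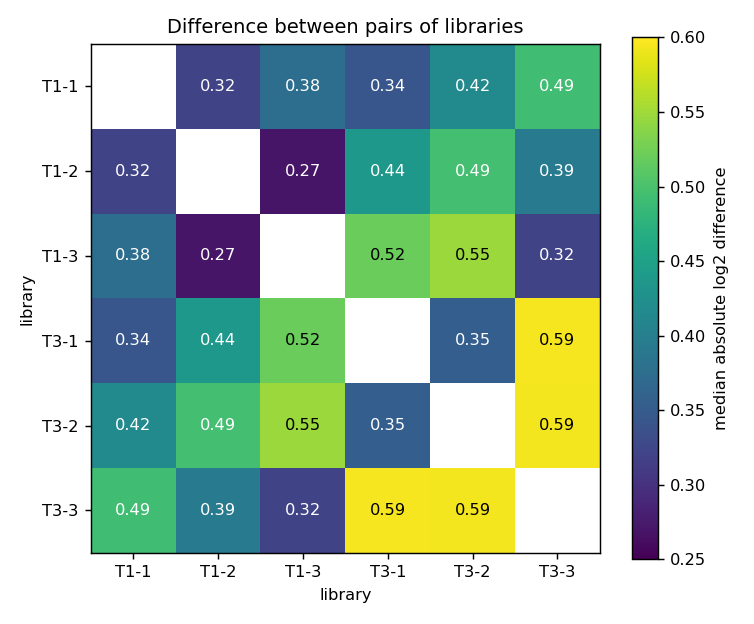
Median absolute difference of scaled log2(FPKM + 1) between each pair of the 6 libraries over the genes tested (colour and printed value, with both axes listing the libraries). The highest values, 0.59, are within T3, between replicate 3 and the other replicates.

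Leaving out T3 replicate 3 changed the number of DEGs more than leaving out any other library. Without it, 4 genes passed after scaling, 3 higher and 1 lower, and 672 rather than 258 were nominal. The 4 were 102266929, 102285137, 102268061 and 106700761. 102285137 (931 bases) was at 8.65, 6.59 and 6.35 in T1 and 28.3, 26.5 and 15.4 in T3, so T3 replicate 3 was also above every T1 animal. 102268061 (1156 bases) was at 1.59, 3.53 and 4.36 in T1, at 384 and 328 in T3 replicates 1 and 2, and at 0.904 in T3 replicate 3. In T2 it was at 259, 380 and 400 and in cattle at 0.111 and 301, so very low and very high values both occurred in T3 and in cattle. 106700761 (3506 bases) was at 142, 120 and 207 in T1, listed at 0 in T3 replicates 1 and 2, and at 548 in T3 replicate 3, with 248 to 432 in T2. With T3 replicate 3 left out, 106700761 entered the test through its T1 values alone. The animal left out therefore went with the other T3 animals in 2 of the 4 genes and against them in the other two. Leaving out any other library gave at most 1 DEG, which was 102266548 without T3 replicate 1.

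Without scaling, leaving out T3 replicate 3 gave 1120 DEGs (9.32% of 12012 genes tested), 23 higher and 1097 lower. The library left out did not choose these genes, but the T1 libraries it is set against did. In T3 replicate 3, 740 of the 1097 lower genes (67.5%) lay below the T1 mean, beside 61.2% of all 12012 genes, and 444 of the 1120 lay within the range of the T1 libraries. The median shift of that library in the direction of the call, which was downward for 1097 of the 1120, was 0.183, and over all genes tested its median difference from the T1 mean was -0.155, also downward. The median absolute log2 fold change of the 1120 in the other T3 animals was 1.3. At a fold change of 2, 118 of the 1120 moved the same way in it. RBBP4, TCF7L2, SPI1, ELP3 and NewGene.812 were among the 1097 lower genes, with log2 differences of -1.31, -1.79, -1.68, -1.23 and -1.31 in that fit and adjusted p-values of 0.034, 0.034, 0.0381, 0.0466 and 0.0361. RPS26 was among the 23 higher ones, at 1.65 with an adjusted p of 0.0382. Over all 12012 genes of that fit the median log2 fold change was -0.55, and 36.7% had an unadjusted limma p under 0.05. The named genes were chosen from these same libraries, and the fit was added after the data were seen. Their adjusted p-values in it were therefore not read as support.

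**Figure D5:**
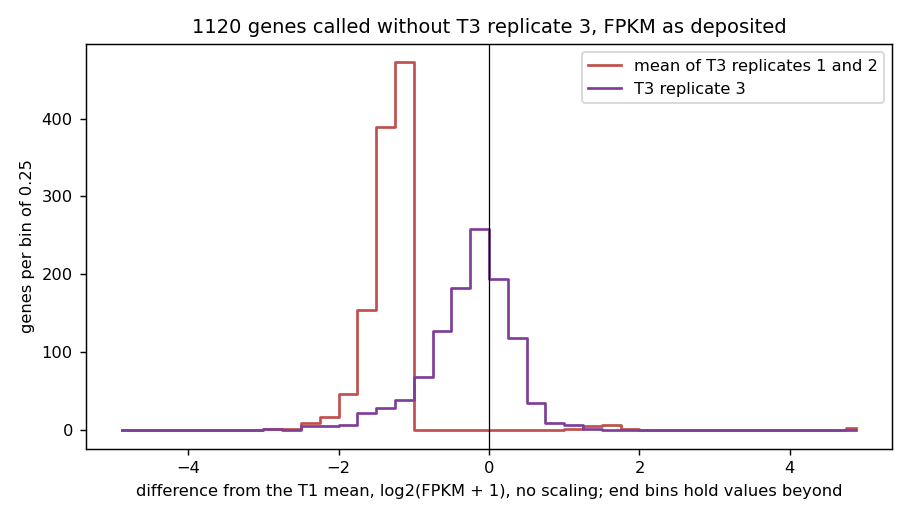
Genes called without T3 replicate 3 and without scaling, counted (y axis) by their difference from the T1 mean in log2(FPKM + 1) (x axis, in bins of 0.25), for the mean of T3 replicates 1 and 2 (red) and for T3 replicate 3 (purple). The red counts lie beyond 1 on either side by the fold threshold, and the purple counts centre near 0, where the median of T3 replicate 3 over all genes tested was -0.155.

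The share of reads that mapped to the genome, given per library in the study, was taken as an alternative to altitude. T3 replicates 2 and 1 had the lowest shares of the 6 libraries and T3 replicate 3 the highest, with T3 replicate 2 far below the rest. The groups thus overlapped in the share, but both of the lowest libraries were from T3. The mapped share and altitude therefore cannot be fully told apart in these libraries. In place of altitude it reached an unadjusted p under 0.05 in 2718 genes (21.8%), against 706 (5.67%) for altitude, and an adjusted p under 0.05 in 2 genes. With 1 library left out it reached an unadjusted p under 0.05 in 1802 genes (without T1 replicate 3) to 2768 (without T3 replicate 2). The genes at an adjusted p under 0.05 then numbered from 2 (as without T1 replicate 2) to 9 (without T3 replicate 1). With both in the fit, it had 2228 genes (17.9%) and altitude 692 (5.55%), and the smallest adjusted p for altitude was 0.495. With all 6 libraries, the genes with an adjusted p under 0.05 for the mapped share were 102272152 (3120 bases) and NewGene.4675 (228 bases). The FPKM of 102272152 was 1251 in T3 replicate 2, 112 in T3 replicate 1 and 35.4 in T1 replicate 1, and 15.9 to 19.4 in the remaining 3 libraries. NewGene.4675 was at 19814 in T3 replicate 2, 1001.5 in T3 replicate 1 and 157 in T1 replicate 1, against 31.8 to 36.5 in the others. Both fell as the mapped share rose, by 2.41 ± 0.09 and 3.53 ± 0.17 (SE) on the log2 scale per 10 percentage points. Without T3 replicate 2 the slopes of 102272152 and NewGene.4675 were -2.53 ± 0.19 and -4.34 ± 0.22 (SE), with limma adjusted p-values of 0.0106 and 0.00147. 102276161, described above, ranked the same 3 libraries highest.

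The animals at 4200 m gave a level between those of T1 and T3 for most genes that differed most. Of the 100 nominal genes higher in T3, the T2 mean lay between the T1 and T3 means in 72, below T1 in 16 and above T3 in 12, and it was nearer to T3 in 40. Of the 158 nominal lower genes it lay between in 108, above T1 in 18 and below T3 in 32, and it was nearer to T3 in 101. A group that lies at an extreme by the choice of genes leaves any other group between more often, so these counts are a description.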

How the data were processed

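The members, gene lists and rule for named genes were chosen with earlier results of these data known. RNA was extracted from lung and libraries were made with a TruSeq kit; the extract protocol of the labels speaks of retinas. Per the study's methods, the authors mapped reads to BosGru_v2.0 with HISAT2 and assembled transcripts with StringTie, whereas the submitters' processing notes list Bowtie2 2.2.8 and TopHat2 2.1.1. The counting tool and the use of strand are not given in the sources used here. The authors deposited FPKM and gene length per library. FPKM times length gave whole reads for 100% of values (tolerance 0.1).

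Differences were fitted with limma 3.58.1 in R 4.3.3, with a variance trend, on log2(median-ratio scaled FPKM + 1) in the 6 libraries. This scale understates changes of low genes. The study's own comparisons used DESeq2, whose count model was not used on FPKM. Library measures were tested with exact permutation tests (scipy 1.17.1, Python 3.11.15). Plots used matplotlib 3.10.9. The fit was also run on simulated data with independent normal noise and with changes planted in abundant genes only. Such data do not hold the split within T3 or the genes of few reads, and no result above rests on that run.

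Named genes were those with a name in the files, groups that did not overlap and an unadjusted p under 0.05, the same way with and without scaling, 8 higher and 6 lower. Genes with an identifier only were the 2 in each direction with the largest change. Of 75 gene lists by name or GO term, 34 had at least 3 tested genes. The alternatives were the deposited values without scaling, quantile normalization, a smaller pseudocount (0.1), a filter at a mean FPKM of 5 or none, fits with 9 or 11 libraries, weights per library, a block for the replicate number, the mapped percent, voom on recovered reads, other thresholds and leaving out each library. Added after seeing the data were voom with quality weights, totals without the most abundant genes, and no scaling combined with library weights, the mapped percent or a library left out, and the fit of the mapped percent alone with a library left out. No reference genome of the build was used, so no sequences or coordinates are given.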

Additional observations from a re-analysis of the deposited data

How the results depend on the processing

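The count of 1 DEG became 0 without scaling, with a pseudocount of 0.1, with no filter, at an average FPKM of 5 or more, with 9 or 11 libraries in the fit, with the replicate block, with the mapped percent, with voom, and without scaling combined with the mapped percent or with the most abundant genes left out of the totals. It was 1177 without scaling and with library weights (35 higher, 1142 lower), which share 915 genes with the 1120 found without scaling and without T3 replicate 3, and library weights gave that replicate 0.287, the lowest of the 6. Leaving out a library gave 0 to 1120 DEGs, the highest without scaling and 4 with it. The 258 genes at an unadjusted p became 750 without scaling, 434 with a pseudocount of 0.1, 91 at an average FPKM of 5 or more, where fewer genes were tested, 556 with library weights, 466 with voom, 813 with voom and quality weights, 685 at a fold change of 1.5 and 706 at any. Without scaling they were 519 with the mapped percent, 1648 with library weights and 493 without the most abundant genes. With a library left out they were 249 to 1964 over the fits with and without scaling. The genes whose groups did not overlap, 1361, became 2867 without scaling, 627 at an average FPKM of 5 or more, and 1938 to 6551 with a library left out, with and without scaling, where fewer values need to lie apart. The median log2 fold change of -0.00 became -0.39 without scaling and, also without scaling, -0.23 with the mapped percent, -0.48 with library weights and -0.14 without the most abundant genes, and ranged from -0.55 to 0.0211 with a library left out, with and without scaling. The genes in the direction of the call in T3 replicate 3 were 2 of 4 with scaling and 752 of 1120 without. The share of new genes of 62.0% became 47.7% without scaling. The genes with reads in every T1 library and none in T3, 113, became 168 to 369 with a library left out, and the reverse, 8, became 20 to 37. With a higher floor in one group but up to 3 reads allowed in the other they were 8 and 1. The replicate numbers did not pair the animals. The correlations of deviations between animals of the same number were 0.243, -0.078 and 0.410, 3 of 6 libraries correlated best with their own number, and the replicate block gave 334 genes at an unadjusted p and left an adjusted p of 0.0577 for 102266929, whose adjusted p over the other alternatives ran from 0.0088 to 0.495. Of 25 genes refitted under these settings, with or without a name in the files, 0 changed direction. Most of them were chosen for groups that did not overlap after scaling. The 14 genes named by rule were also chosen for the same direction without scaling. That count was thus largely set by the choice of genes and was not read as support. Among the genes described for their levels or reads, COX16, ATP5A1 and COX6C turned negative without scaling, as did the ND5 model NewGene.12171 (0.07 to -0.44). The median over all genes also fell there, to -0.39. Over the settings not added after seeing the data, 102266368 ran from -0.43 to 1.18 around 0.82, and the ND2 model NewGene.7293 from -0.68 to 0.11 around -0.25. The long models, not read as levels, also turned, NewGene.1 between -4.90 and 2.55 and NewGene.2 between -0.96 and 5.96. The genes that moved with the mapped percent at an unadjusted p, 2718, became 1802 to 2768 with a library left out. Those at an adjusted p, 2, became 2 to 9. Where no cause is given above, the cause was not tested. Genes of a few reads, such as RPS26 and SPI1, also carry counting error.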
